A study of Mus musculus with 4 samples.

Results

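The chemokine receptor genes of leukocytes described here are 9 of the 32290 features in the files: Ccr2, Ccr4, Ccr6, Ccr7, Cxcr3, Cxcr4, Cxcr5, Cxcr6 and Cx3cr1. They were taken by symbol, whatever their level, and all 9 had counts in each library. The values come from single-cell RNA sequencing of adipose tissue (AT) of mice, with 1 library for each of 4 groups: WT SC, KO SC, WT IP and KO IP. SC and IP are the depots as the labels name them, and the study analysed inguinal AT as subcutaneous and gonadal AT as visceral. All mice carried the Tie2e-cre transgene, which drives Cre in endothelial cells (EC), and the mTmG reporter, and were 7 months old. WT mice were TERT+/+ and KO mice TERTfl/fl, so that Tert, the catalytic subunit of telomerase, was to be lost in the cells in which Cre is active. The mice were male and had been fed a high-fat diet for 5 months. The number of mice per library is not given in the sources used here.

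Chemokine receptors are G protein-coupled receptors that guide leukocytes along gradients of small secreted proteins. Ccr7 and Cxcr5 direct naive T cells, mature dendritic cells and B cells to lymphoid tissue, whereas Ccr2, Cxcr3, Ccr4, Ccr6, Cxcr6 and Cx3cr1 mark cells that enter or stay in peripheral and inflamed tissue, and Cxcr4 is expressed on most leukocytes. In AT of obese mice the Ccr2 axis is known for bringing in monocytes that become macrophages, and γδ T cells that make IL-17 are known as residents of fat.

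Cell classes were set by counts (unique molecular identifiers, UMIs) of marker genes that do not include any of the 9 receptors, and each is named "-like" for that reason. After filters 968 cells were kept in WT and 1955 in KO for SC, and 672 in WT and 518 in KO for IP, with a median of 6706 to 13047 UMIs per cell. The 9 receptors together had 6016, 11583, 3202 and 2041 UMIs in the same order. Levels are the UMIs of a gene in a class and library scaled to 1e6 UMIs of that class (CPM, counts per 1e6). Brackets hold 95% intervals that cover counting error only. With 1 library per group no difference between groups could be tested, the spread between mice is unknown, and genotype cannot be told apart from library. Tert, the targeted gene, had 3 UMIs in WT and 2 in KO for SC, and 8 in WT and 9 in KO for IP over all barcodes, too few to check the genotype labels. Barcodes found in 2 libraries numbered 95, of which 93 were shared by KO SC and WT IP. Of these, 92 were kept in both, with a median of 605.5 UMIs in KO SC and 35536 in WT IP. They were mainly stromal-like (75 in KO SC and 76 in WT IP), and only 1 T-like cell of KO SC and none of WT IP was among them. Leaving them out moved 3 of 378 levels: Cxcr4 in WT IP macrophage-like cells from 181 to 208 CPM, Ccr4 in those cells, and Cxcr3 in WT IP dendritic-like cells, which became 0.

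The genome positions are from the GENCODE annotation of GRCm38. Of the 9 genes, 5 lie on chromosome 9: Ccr2 (chr9:124101950-124113557, plus strand), Cxcr6 (chr9:123806475-123811760, plus strand), Cx3cr1 (chr9:119901616-120069879, minus strand), Ccr4 (chr9:114490316-114504916, minus strand) and Cxcr5 (chr9:44511787-44561877, minus strand). Ccr6 lies at chr17:8236043-8257141 on the plus strand, and Ccr7 (chr11:99144196-99155077), Cxcr4 (chr1:128588199-128592293) and Cxcr3 (chrX:101731535-101734269) lie on the minus strand. Cxcr6 is within Fyco1 and Cxcr5 overlaps Bcl9l, both on the opposite strand. The annotated span of Cx3cr1 holds or touches 9 other genes, of which Gorasp1, Csrnp1 and Xirp1 are on its own strand.

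The promoters of Cxcr6 and Ccr2 are shown because these genes were found together in γδ T-like cells with IL-17 program genes. RefSeq promoters (GRCm38.p6) matched 7 of the 9 members. Ccr7 and Cxcr5 were not matched. The window is the 250 bases before the RefSeq start, written 5′ to 3′ on the strand of the gene. For Ccr2 the RefSeq start lies inside the GENCODE span, which begins at 124101950, so most of its window is within the annotated gene. Capitals mark motif letters, searched on both strands: Runx ACCACA, T-box AGGTGTG, Klf GGGTG and Ets ACAGGAAG.
Cxcr6, chr9:123806227-123806476, plus strand: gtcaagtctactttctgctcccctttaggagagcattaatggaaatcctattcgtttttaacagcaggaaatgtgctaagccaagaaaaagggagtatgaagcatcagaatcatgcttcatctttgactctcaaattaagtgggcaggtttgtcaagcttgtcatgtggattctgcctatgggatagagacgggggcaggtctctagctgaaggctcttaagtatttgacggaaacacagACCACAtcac
Ccr2, chr9:124101933-124102182, plus strand: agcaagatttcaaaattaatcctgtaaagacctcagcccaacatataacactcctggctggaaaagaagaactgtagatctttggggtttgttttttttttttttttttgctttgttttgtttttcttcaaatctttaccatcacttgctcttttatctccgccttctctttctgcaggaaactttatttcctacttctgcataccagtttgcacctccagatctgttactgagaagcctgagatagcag
The Cxcr6 window held 1 Runx word, 10 bases before the start, and such a word occurred in 14.0% of all 32851 promoter windows of this length. The Ccr2 window held none of the 4 motifs, of which T-box occurred in 5.10%, Klf in 52.0% and Ets in 2.90% of all windows. These matches describe letters only.

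**Figure D1:**
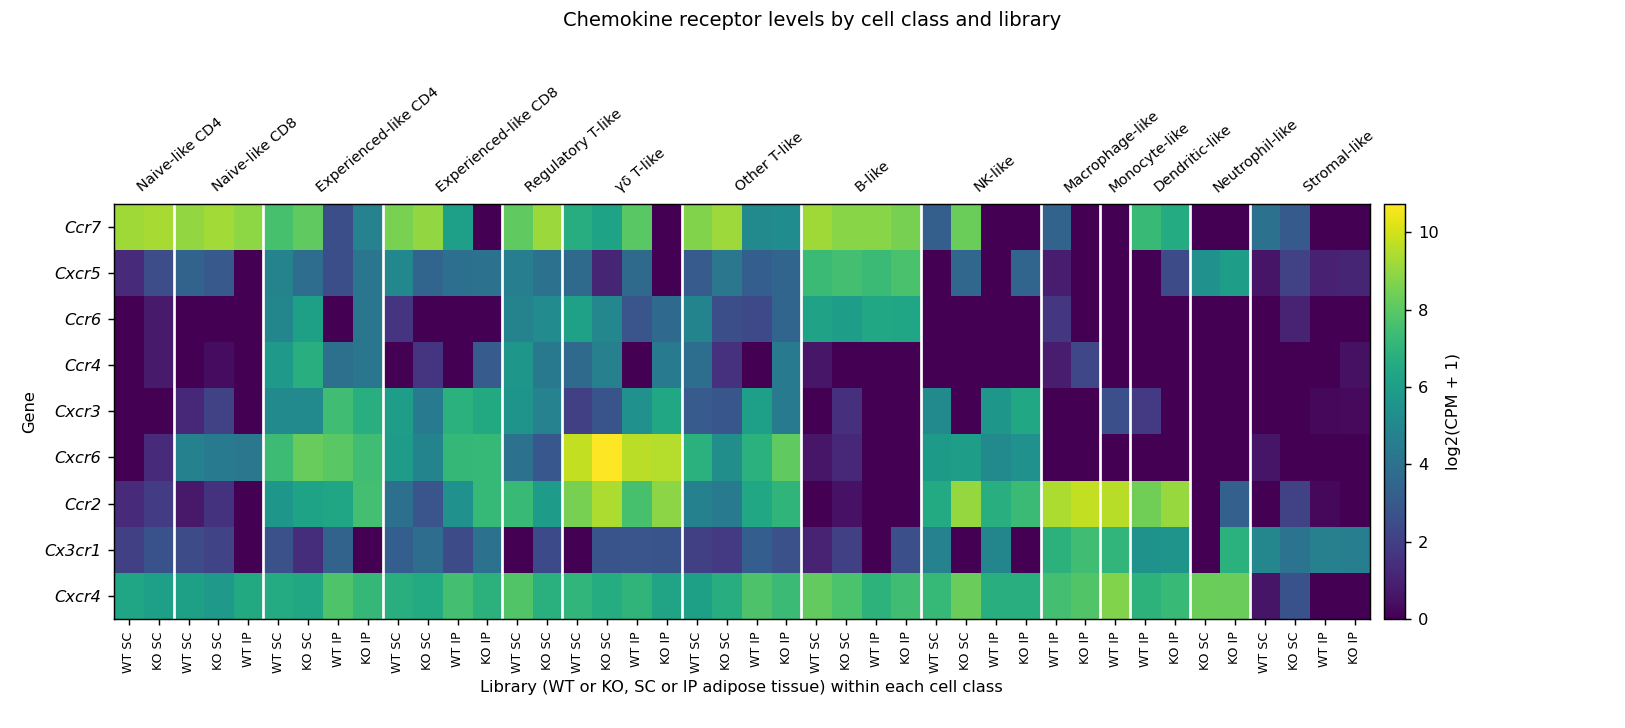
Levels of the 9 receptors (rows) by cell class and library (columns), coloured by log2(CPM + 1), for classes with at least 10 cells in a library. Ccr7 fills the naive-like T and B-like columns, Cxcr6 is highest in γδ T-like cells (751 to 1710 CPM), and Ccr2 is highest in the macrophage- and monocyte-like columns (690 to 872 CPM).

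Ccr7, the receptor for the lymph node chemokines Ccl19 and Ccl21, was the most abundant of the 9 in naive-like T and B-like cells. In naive-like CD4 T cells it stood at 588 CPM in WT SC (531 to 650) and 636 CPM in KO SC (595 to 679). In naive-like CD8 T cells it stood at 517 CPM in WT SC, 611 in KO SC and 481 in WT IP. The IP libraries had few naive-like cells, 18 for WT and 5 for KO, so that the naive-like share of CD4 and CD8 T cells was 74.2% in WT (68.9 to 79.1) and 76.3% in KO for SC, and 25.4% in WT (15.8 to 37.1) and 9.26% in KO (3.08 to 20.3) for IP. B-like cells held 594, 460, 453 and 372 CPM in WT SC, KO SC, WT IP and KO IP. Antigen-experienced-like T cells, which had more UMIs of genes such as S100a4, Ccl5 and Nkg7 than of naive genes, differed by depot. The experienced-like CD8 T cells had 381 CPM in WT SC and 505 in KO SC, against 65.2 in WT IP and 0 UMIs in the 23 cells of KO IP. Regulatory T-like cells, defined by Foxp3, held 276 CPM in WT SC and 563 in KO SC, intervals that do not overlap (216 to 348 and 497 to 636). Mature dendritic-like cells, which use Ccr7 to reach lymph nodes, had the highest levels of all at 1599, 1381 and 1604 CPM in WT SC, KO SC and WT IP, from only 6, 7 and 3 cells.

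Ccr7 in NK-like and stromal-like cells rested on few cells. In NK-like cells of KO SC it stood at 319 CPM, from 30 UMIs in 3 of 11 cells, against 8.62 CPM in WT SC and 0 UMIs in both IP libraries. The T cell marker list (Cd3d, Cd3e, Cd3g and Trac) summed to 266 CPM in those 11 cells and to 5.97 to 94.3 CPM in the NK-like cells of the other libraries, and its part in the Ccr7 value was not tested. In stromal-like cells of WT SC the level was 15.1 CPM, with 24 of the 28 UMIs in 1 cell.

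Cxcr5, the receptor for the B cell follicle chemokine Cxcl13, was mainly on B-like cells. It stood there at 161 CPM in WT and 185 in KO for SC, and 158 in WT and 202 in KO for IP, and the 4 intervals overlap. In all T-like cells it was between 7.77 and 12.6 CPM. B-like cells with UMIs of both Ccr7 and Cxcr5 numbered 144 of 291, 185 of 433, 11 of 21 and 10 of 24 in WT SC, KO SC, WT IP and KO IP. The neutrophil-like cells of KO IP had 62.3 CPM from 7 UMIs in 4 of 22 cells.

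Ccr6, the receptor for Ccl20, was at 71.4, 63.9, 82.3 and 77.6 CPM in B-like cells of WT SC, KO SC, WT IP and KO IP. The T-like cells with Ccr6 were mainly in SC. In experienced-like CD4 T cells it stood at 29.2 CPM in WT SC and 68.8 in KO SC, against 0 UMIs in 29 cells of WT IP and 4 UMIs in 1 of 26 cells of KO IP. Regulatory T-like cells had 27.2 CPM in WT SC and 34.8 in KO SC.

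Ccr4, the receptor for Ccl17 and Ccl22, was found in several T cell classes, with experienced-like CD4 T cells holding the largest share of its UMIs in WT SC, KO SC and WT IP and γδ T-like cells in KO IP (30.4%). The experienced-like CD4 T cells had 55.7 CPM in WT (34.5 to 85.2) and 107 in KO (82.2 to 136) for SC, and 14.8 in WT and 17.4 in KO for IP. Regulatory T-like cells had 50.5 CPM in WT SC and 19.6 in KO SC. γδ T-like cells had 12.2 CPM in WT SC, 24.4 in KO SC and 20.7 in KO IP, from 4, 21 and 7 UMIs, and 0 UMIs in WT IP. The experienced-like CD8 T cells had none in WT SC (0 of 42 cells, which allows a share of cells with a UMI of up to 7.14% by 3 counts) and 2 UMIs in 1 of 93 cells in KO SC.

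Cxcr3, the receptor for the interferon-induced chemokines Cxcl9 and Cxcl10, was found in experienced-like T, NK-like and several further T cell classes. In experienced-like T cells it was higher in IP. In experienced-like CD4 T cells it stood at 34.5 CPM in WT and 32.8 in KO for SC, and 172 in WT (120 to 240) and 109 in KO (70.6 to 161) for IP. In experienced-like CD8 T cells it stood at 61.8, 20.7, 116 and 90.1 CPM in the same order. NK-like cells had 34.5, 49.7 and 83.8 CPM in WT SC, WT IP and KO IP, and 0 UMIs in the 11 cells of KO SC. Regulatory T-like cells of SC had 26.1 to 46.7 CPM, and T-like cells of no named subset 6.28 to 66.3 CPM. γδ T-like cells held 29.6% of the Cxcr3 UMIs of KO IP, the largest share there. Naive-like cells were close to 0, with at most 3.36 CPM in naive-like CD8 T cells of KO SC.

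Cxcr6, the receptor for Cxcl16 and a mark of T cells that stay in tissue, was above all a receptor of γδ T-like cells, those with UMIs of Trdc and none of Cd4, Cd8a or Cd8b1. It stood there at 853 CPM in WT (756 to 959) and 1710 in KO (1624 to 1800) for SC, and 800 in WT (669 to 950) and 751 in KO (661 to 849) for IP. The library of KO SC stood apart from the other 3, whose intervals overlap. Experienced-like CD4 T cells had 162, 298, 256 and 174 CPM in WT SC, KO SC, WT IP and KO IP, and T-like cells of no named subset had 114, 38.9, 116 and 278 CPM, so that the ranges of these classes overlap. The experienced-like CD8 T cells had 59.8 and 28.0 CPM in the SC libraries against 140 and 146 in the IP libraries. NK-like cells lay between 33.8 and 63.8 CPM.

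A low level of Cxcr6 was also present in naive-like CD8 T cells and not in naive-like CD4 T cells. It was at 25.7 CPM in WT SC (18.4 to 35.1; 25 of 141 cells, 17.7%) and 20.2 CPM in KO SC (15.8 to 25.4; 52 of 382 cells, 13.6%). Naive-like CD4 T cells had none in 81 cells of WT SC and 1.40 CPM in KO SC (0.169 to 5.05; 2 of 208 cells, 0.962%). B-like cells of the same libraries had a UMI in 0.344% and 0.693% of cells. The naive-like CD8 T cells were deeper, with a median of 10946 and 9112 UMIs against 7657 and 6672 in naive-like CD4 T cells. With each cell thinned to 2000 UMIs the shares were 4.26% and 2.09% in naive-like CD8 T cells and 0 in naive-like CD4 T cells of both libraries. Of the naive-like CD8 T cells with Cxcr6, 22 of 25 in WT SC and 51 of 52 in KO SC also had Ccr7. A cell was called naive-like when it had more UMIs of naive than of experienced genes. The experienced genes summed to 648 and 509 CPM in naive-like CD8 T cells of WT SC and KO SC, against 353 and 331 in naive-like CD4 T cells. The part of experienced cells among those called naive-like in the Cxcr6 counts was not tested.

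**Figure D2:**
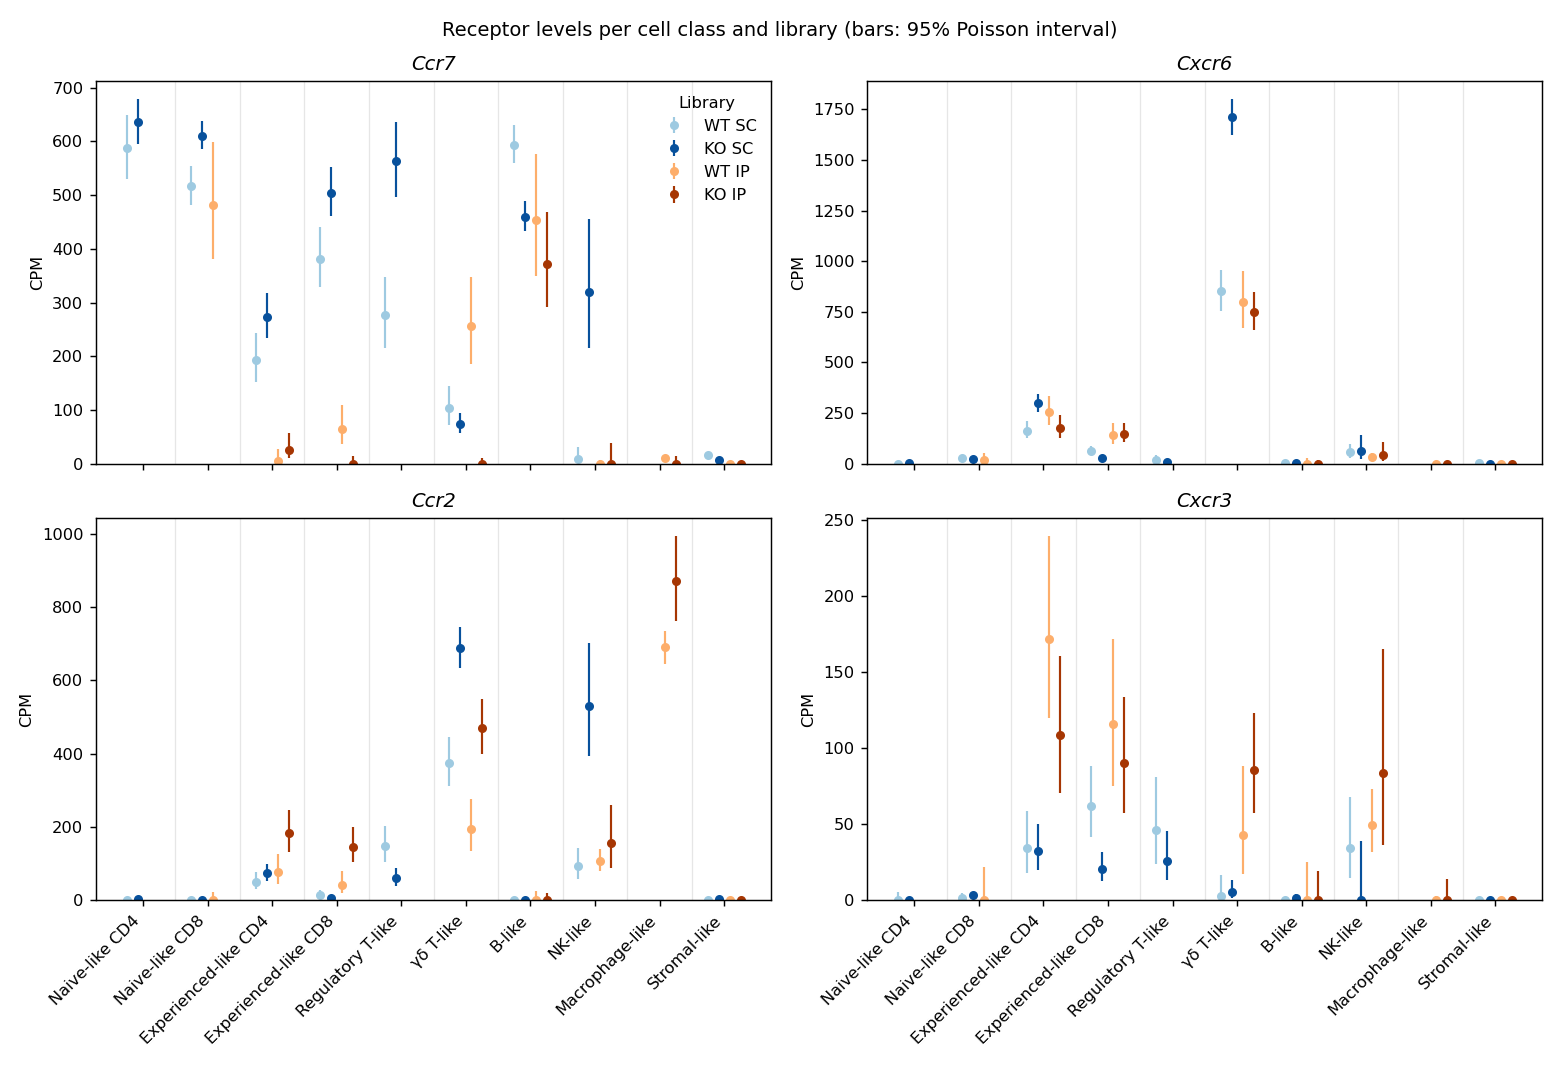
Levels (CPM, vertical axis) of Ccr7, Cxcr6, Ccr2 and Cxcr3 by cell class, with 1 point per library and bars for the 95% Poisson interval of the count. Ccr7 of experienced-like CD8 T cells lies at 381 and 505 CPM in SC and at 65.2 and 0 CPM in IP, and Cxcr6 of γδ T-like cells in KO SC (1710 CPM) lies above the other 3 libraries.

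Ccr2, the receptor for Ccl2 and Ccl7, was highest in macrophage- and monocyte-like cells of IP. There, macrophage-like cells had 690 CPM in WT (646 to 736) and 872 in KO (762 to 993), and monocyte-like cells of WT IP had 776 (658 to 910). Dendritic-like cells had 336 CPM in WT IP and 538 in KO IP. The SC libraries had 3 and 5 macrophage-like cells, too few for a level. Among lymphocytes γδ T-like cells led, with 375 CPM in WT and 688 in KO for SC, and 196 in WT and 470 in KO for IP, and in both depots the KO library was the higher. NK-like cells had 94.8, 532, 107 and 157 CPM in WT SC, KO SC, WT IP and KO IP, and the value of KO SC is from the same 11 cells in which T cell markers were present. Regulatory T-like cells had 148 CPM in WT SC, with 21 of 38 UMIs in 1 cell, and 60.9 in KO SC. B-like cells had at most 1 UMI in a library.

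Cx3cr1, the fractalkine receptor of patrolling monocytes and many resident macrophages, stood at 117 CPM in macrophage-like cells of WT IP and 174 in those of KO IP. Monocyte-like cells of WT IP had 133 CPM, and dendritic-like cells had 43.0 and 45.6 in WT IP and KO IP. Of all mononuclear phagocytes, 56 of 118 cells in WT IP and 17 of 44 in KO IP had UMIs of both Ccr2 and Cx3cr1. In neutrophil-like cells of KO IP, 11 of the 13 UMIs came from 1 cell. All T-like and B-like cells had 6.37 CPM or less in each library, and the experienced-like CD8 T cells 4.66 to 15.0 CPM.

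Stromal-like cells, the class that should lack leukocyte receptors, had Cx3cr1 counts as well: 30.1 CPM in WT and 15.9 in KO for SC, and 24.6 in WT and 23.1 in KO for IP. These were spread over 14 of 104, 15 of 206, 61 of 285 and 39 of 224 cells. Ptprc, the common leukocyte gene, was at 2.64, 39.1, 0.526 and 0 CPM in the stromal-like cells with Cx3cr1, against 828 and 945 CPM in macrophage-like cells of IP. Csrnp1, which lies within the annotated span of Cx3cr1 on the same strand, was at 75.3 CPM in stromal-like cells of WT IP with Cx3cr1 and 39.4 in those without, and at 125 and 58.0 CPM in KO IP. In SC it was at 100 CPM in the cells with and 87.8 in those without in WT, and at 125 and 120 in KO. In macrophage-like cells of WT IP it was lower in the cells with Cx3cr1, at 139 against 223 CPM, and in those of KO IP higher, at 146 against 31.9 CPM. The cells with Cx3cr1 were also deeper, for example a median of 31148 against 21258 UMIs in WT IP. The part of the overlap in these counts was not tested.

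Cxcr4, the receptor for Cxcl12, was found in every leukocyte class and was near 0 in stromal-like cells, at 5.49 CPM or less. Monocyte-like cells of WT IP had 419 CPM (333 to 520), neutrophil-like cells of KO SC and KO IP 321 and 312, and macrophage-like cells of WT IP and KO IP 181 and 229. B-like cells had 281 CPM in WT (257 to 307) and 206 in KO (188 to 225) for SC, and 124 in WT and 176 in KO for IP. Naive-like T cells lay between 55.4 and 90.2 CPM in libraries with at least 10 of them. Cxcr4 can respond to tissue dissociation, so a list of 12 immediate early and heat shock genes was read beside it. In B-like cells that list summed to 4883, 3388, 2628 and 2493 CPM in WT SC, KO SC, WT IP and KO IP, and in naive-like CD4 T cells to 5131 in WT SC and 2989 in KO SC. The sums do not stand for all 12 genes. In B-like cells of SC, Hspa1a was at 925 CPM in WT and 53.8 in KO, Hspa1b at 736 and 54.7, and Jun at 352 and 104. Fos, Junb, Dusp1 and Nr4a1 were higher in KO there, and the median log2 ratio of the 12 genes was -0.05. In naive-like CD4 T cells Hspa1a was at 1251 CPM in WT SC and 9.09 in KO SC. The part of this list in the Cxcr4 values was not tested.

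Within γδ T-like cells the receptors sorted with the IL-17 program. The cells were split by whether they had a UMI of Il17a, Il23r or Cd163l1. Cells with such a UMI numbered 20 of 31 in WT and 100 of 119 in KO for SC, and 11 of 18 in WT and 34 of 36 in KO for IP. Cxcr6 was at 1216, 2077, 1263 and 776 CPM in the cells with IL-17 program genes, against 39.5, 45.1 and 92.8 in those without in WT SC, KO SC and WT IP. Ccr2 was at 533, 836, 313 and 493 CPM in the cells with, against 19.7, 12.9 and 15.5 in those without. Only 2 cells of KO IP were without, and no level is given for them.

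Ccr7 had the opposite distribution. The cells with IL-17 program genes had 4.41 CPM in WT SC, 8.52 in KO SC and 0 UMIs in both IP libraries, whereas those without had 326, 367 and 650 in WT SC, KO SC and WT IP, the last from 42 UMIs in 3 of 7 cells, 37 of them in 1 cell. Ccr6, a receptor known on IL-17-producing T cells, was at 101 CPM in WT (64.2 to 152) and 36.9 in KO (24.1 to 54.1) for SC, and 10.1 in WT and 12.4 in KO for IP in the cells with these genes, and had 0 UMIs in those without. Cxcr3 was at 0 in the cells with IL-17 program genes in both SC libraries, but at 50.5 CPM in WT IP and 90.0 in KO IP. UMIs of both Ccr2 and Cxcr6 were present in 19 of 31, 92 of 119, 11 of 18 and 33 of 36 γδ T-like cells. The cells with and without IL-17 program genes had a median of 10483 and 8644 UMIs in WT SC, 7138 and 8365 in KO SC, and 9237 and 9277 in WT IP.

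**Figure D3:**
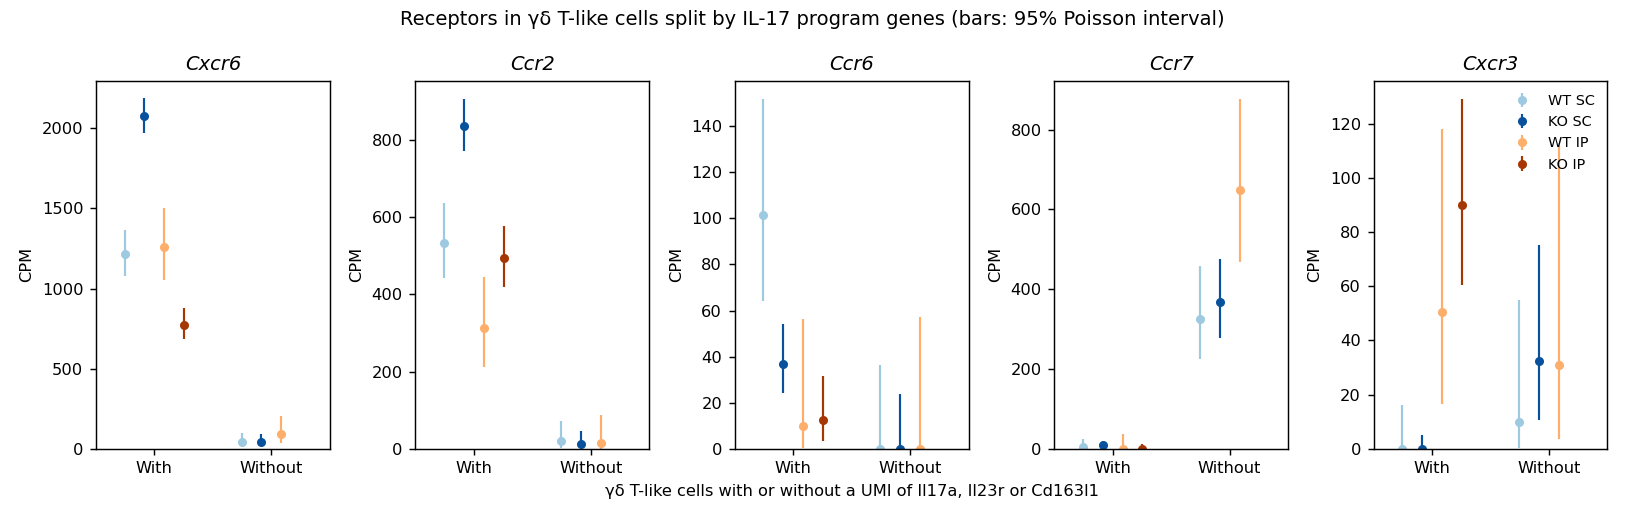
Levels (CPM, vertical axis) of Cxcr6, Ccr2, Ccr6, Ccr7 and Cxcr3 in γδ T-like cells with or without a UMI of Il17a, Il23r or Cd163l1, 1 point per library, with bars for the 95% Poisson interval. Cxcr6 and Ccr2 lie at 776 to 2077 and 313 to 836 CPM with these genes and below 100 CPM without, Ccr7 lies the other way round, and KO IP is not drawn without them (2 cells).

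For KO against WT, the question was whether loss of Tert in EC went with other receptor levels in leukocytes of the same depot. Ratios are log2 of KO over WT after adding 0.5 UMI, for classes with at least 30 cells in both libraries and genes with at least 20 UMIs, and a gene is counted when it passed 2-fold. In naive-like CD4 T cells of SC, 0 of 2 receptors compared passed, where 6.24% of all genes compared did. In naive-like CD8 T cells of SC it was 0 of 5 (all genes 4.73%), with Ccr7 at 0.24 (0.12 to 0.36) against a median of -0.11 over all genes. In B-like cells of SC it was 0 of 4 (all genes 4.54%). There Ccr7 was at -0.37 (-0.49 to -0.24) and Cxcr4 at -0.45 (-0.64 to -0.27), beyond counting error, and Cxcr5 at 0.20 and Ccr6 at -0.16, within it.

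In γδ T-like cells of SC, of 6 receptors compared, 2 passed 2-fold, where 14.3% of all genes did and the median over all genes was -0.11. Cxcr6 was 2.0-fold higher in KO (log2 1.0, 0.82 to 1.19) with 1470 UMIs against 280, at the limit of the 2-fold rule, and its ratio was 0.99 with called doublets kept. Ccr6 was 2.32-fold lower in KO (log2 -1.22, -2.08 to -0.34) from 26 against 23 UMIs. Ccr2 was 1.83-fold higher (log2 0.87, 0.59 to 1.17), and Ccr7 and Cxcr4 were within counting error. The KO cells with IL-17 program genes were 100 of 119 against 20 of 31 in WT. Within those cells alone Cxcr6 and Ccr2 were again higher in KO SC than in WT SC, as given above, and Ccr6 lower. In IP the order of Cxcr6 was the other way, with 776 CPM in KO and 1263 in WT, while Ccr2 was again higher in KO. The WT groups hold 20 and 11 cells, so that no ratio was formed.

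Experienced-like CD4 and CD8 T cells of SC had 1 of 9 receptors past 2-fold (all genes 9.82%, median -0.13). It was Cxcr5, which was 2.52-fold lower in KO (log2 -1.33, -2.30 to -0.41) from 18 and 25 UMIs. Cxcr3 was 1.96-fold lower (log2 -0.97, -1.63 to -0.32), at 25.4 CPM in KO and 49.9 in WT. By the levels given above, this difference was in the CD8 cells, whereas the CD4 cells had nearly the same level in both libraries. Ccr7 was higher in KO (log2 0.47, 0.26 to 0.69), as was Ccr4 (log2 0.78, 0.08 to 1.59). Over all T-like cells of SC none of 9 passed (all genes 6.6%, median -0.14), with Cxcr6 at 0.76 and Ccr2 at 0.70. γδ T-like cells were 31 of 451 T-like cells in WT SC and 119 of 1146 in KO SC. They held 78.6% of the Cxcr6 and 71.0% of the Ccr2 UMIs of KO SC. By subset, Cxcr6 was higher in KO SC in γδ and experienced-like CD4 T cells. It was lower in experienced-like CD8 T cells and T-like cells of no named subset. The part of this make-up in the sums was not tested. Heat shock genes differed widely between these libraries: Hspa1a stood at 613 CPM in T-like cells of WT SC and 25.8 in those of KO SC. Its part in the receptor values was not tested.

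In IP, experienced-like CD4 and CD8 T cells had 2 of 5 receptors past 2-fold (all genes 10.3%, median 0.03). Ccr2 was 2.70-fold higher in KO (log2 1.43, 0.79 to 2.16), at 163 CPM against 59.8. The difference was present in both the CD4 cells (183 against 78.8 CPM) and the CD8 cells (146 against 41.9 CPM), where 1 KO cell held 15 of 39 UMIs. With each cell thinned to 2000 UMIs, 22.4% of the KO cells and 7.55% of the WT cells had a Ccr2 UMI, against 51.0% and 24.5% unthinned. Stromal-like cells, at a median of 21979 and 23101 UMIs in KO IP and WT IP, had Ccr2 in 0 and 0.351% of cells. Ccr7 was 2.83-fold lower in KO (log2 -1.50, -3.22 to -0.12), from 6 against 15 UMIs, and at -0.93 with a gate of 3 markers and 6 UMIs. The CD8 cells of KO IP had 0 of these UMIs, so all 6 were in CD4 cells. The CD4 cells of WT IP had 4.92 CPM, the lowest of the 4 libraries. The lower value in KO thus came from the CD8 cells, and the CD4 cells went the other way. Cxcr4 was lower in KO (log2 -0.62, -1.11 to -0.13), and Cxcr3 and Cxcr6 were within counting error.

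Over all T-like cells of IP, 3 of 6 receptors passed 2-fold (all genes 10.1%, median 0.12). Ccr2 was 3.24-fold higher in KO (log2 1.69, 1.33 to 2.09), Ccr4 was 4.69-fold higher from 17 against 3 UMIs, and Ccr7 was 4.03-fold lower (log2 -2.01, -2.55 to -1.52). The make-up of the T-like cells differed between these libraries: KO IP had 36 γδ T-like and 5 naive-like cells among 118, and WT IP 18 and 18 among 123. Fewer cells of a subset and less RNA per cell cannot be told apart in such a sum. With the T cell subsets weighted equally, the log2 ratio was 1.22 for Ccr2, 2.03 for Ccr4 and -2.48 for Ccr7. That weighting used subsets with at least 10 cells in both libraries and left out regulatory T-like cells. Neither naive-like subset entered here. Mononuclear phagocytes of IP had 0 of 4 receptors past 2-fold (all genes 11.5%). Ccr2 was at 0.13 (-0.04 to 0.29), Cx3cr1 at 0.06 (-0.38 to 0.48), Cxcr4 at 0.15 (-0.16 to 0.45) and Ccr7 at -0.32 (-1.07 to 0.32), so that a 2-fold difference in Ccr2, Cx3cr1 or Cxcr4 lies outside the counting intervals of this pooled class. Its make-up differed too, with 76 macrophage-like cells of 118 in WT IP and 21 of 44 in KO IP. Within macrophage-like cells Ccr2 was at 690 CPM in WT IP and 872 in KO IP, with intervals that do not overlap. Dendritic-like cells had 336 and 538 CPM. No level is given for the 7 monocyte-like cells of KO IP.

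**Figure D4:**
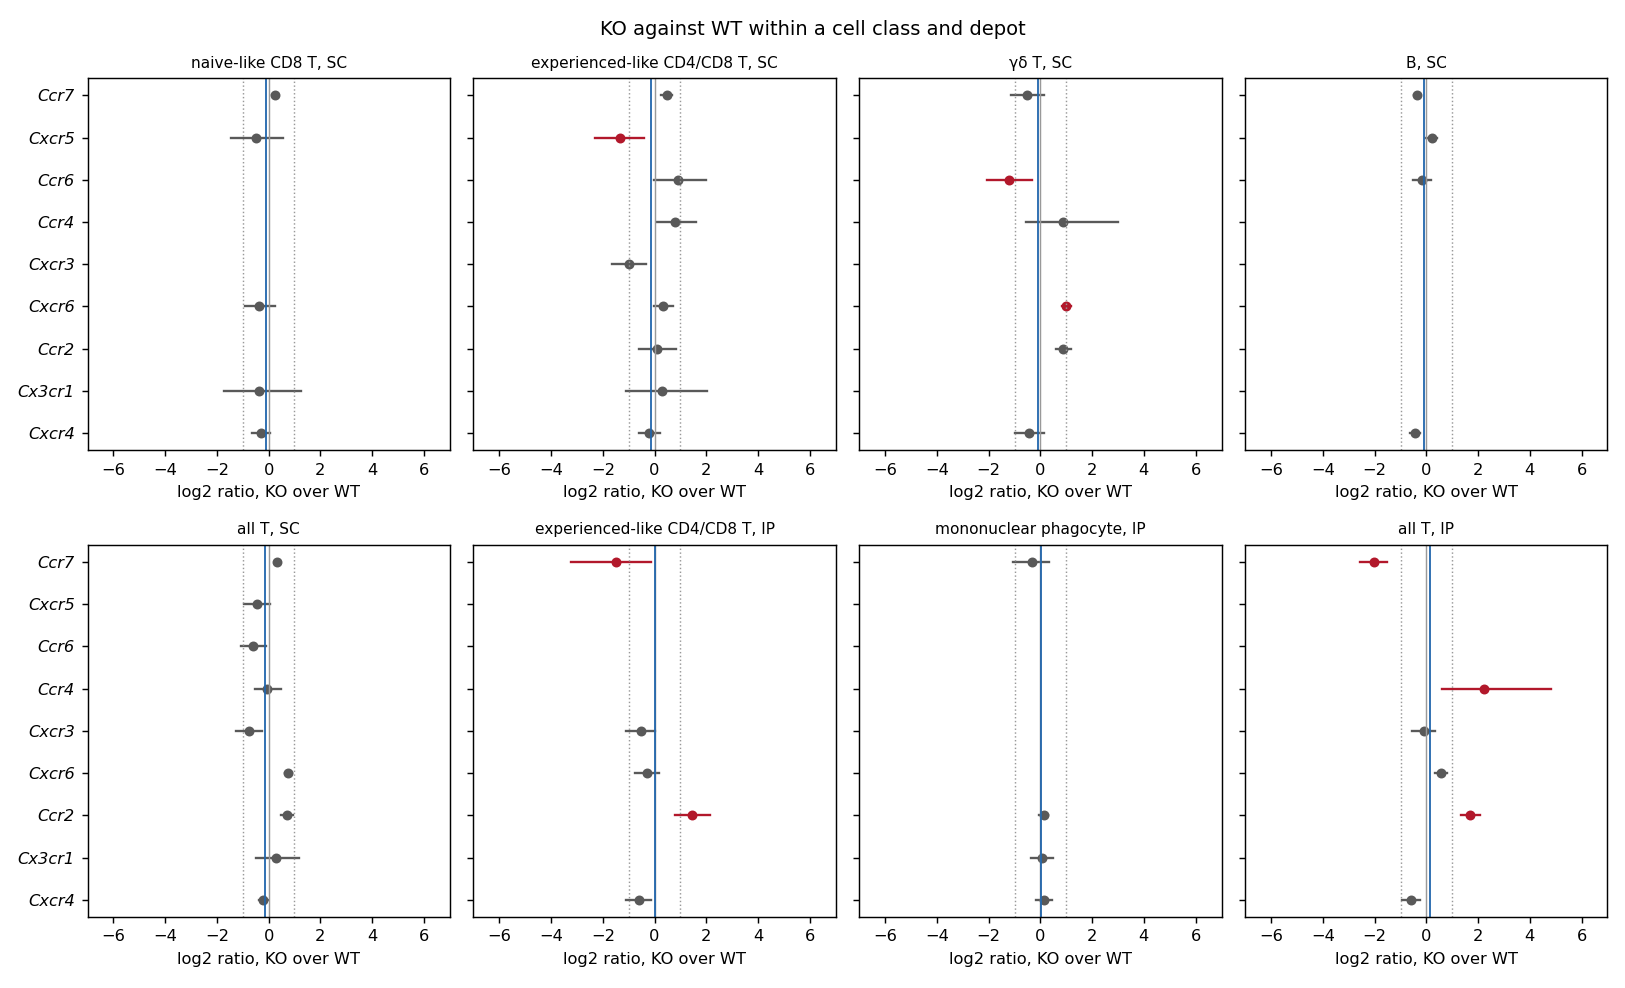
Log2 ratios of KO over WT (horizontal axis) for each receptor (vertical axis) in 8 class and depot pairs, with bars for the 95% counting interval; red marks ratios past 2-fold, dotted lines 2-fold and the blue line the median of all genes. In SC the γδ T-like panel shows Cxcr6 at 1.0 and Ccr6 at -1.22, and in IP Ccr2 lies at 1.43 in experienced-like and 1.69 in all T-like cells.

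The depots were compared within a genotype, and each library enters both kinds of comparison. In experienced-like CD4 and CD8 T cells 4 of 7 receptors passed 2-fold in WT (all genes 13.9%, median 0.07) and 5 of 8 in KO (all genes 16.6%, median 0.26). Ccr7 was 8.09-fold lower in IP in WT (log2 -3.02, -3.92 to -2.31) and 31.7-fold lower in KO (log2 -4.99, -6.55 to -3.97). Cxcr3 was 2.87-fold higher in IP in WT (log2 1.52, 0.94 to 2.13) and 3.88-fold higher in KO (log2 1.96, 1.33 to 2.6). Ccr4 was lower in IP in both, at log2 -1.57 in WT from 3 against 21 UMIs (-0.51 with each cell weighted equally) and -1.71 in KO from 6 against 67. The class itself differed between depots. In its CD8 cells naive markers summed to 616, 716, 298 and 184 CPM in WT SC, KO SC, WT IP and KO IP. Experienced markers summed to 4855, 4050, 10740 and 11162 CPM. CD4 and CD8 cells numbered 28 and 42 in WT SC, 72 and 93 in KO SC, 29 and 24 in WT IP, and 26 and 23 in KO IP. The part of these differences in the ratios was not tested.

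Ccr2, Ccr6 and Cxcr5 passed 2-fold in 1 genotype each. Ccr2 was 5.03-fold higher in IP in KO (log2 2.33, 1.81 to 2.87) and 1.98-fold higher in WT (log2 0.99, 0.14 to 1.84). Ccr6 was lower in IP in KO (log2 -1.57, -3.67 to -0.26), and in WT it had 12 UMIs in SC and 0 in IP, under the 20 UMIs set for a comparison. Cxcr5 was lower in IP in WT (log2 -1.46) and at 0.55 in KO, within counting error. Whether these depot differences themselves differ between genotypes was not tested. Cxcr6 was higher in IP in WT (log2 0.91) and at 0.27 in KO, within counting error. The KO value pools opposite changes. The CD8 cells had 28.0 CPM in KO SC and 146 in KO IP, whereas the CD4 cells had 298 CPM in KO SC, the highest of the 4 libraries, and less in KO IP.

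γδ T-like cells could be compared between depots in KO only, where 4 of 7 receptors passed 2-fold (all genes 19.2%, median 0.20). Cxcr3 was 13.6-fold higher in IP (log2 3.77, 2.50 to 5.61) from 29 against 5 UMIs. Cxcr6 was 2.28-fold lower in IP (log2 -1.19, -1.39 to -1.0). Ccr7 had 63 UMIs in SC and 0 in IP and was at least 8.27-fold lower, counted against a floor of 3 UMIs per library, and the 95% interval of its log2 ratio ended at -2.71. Ccr6 was at -1.21, within counting error (-3.34 to 0.17), from 4 UMIs in IP.

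Over all T-like cells 5 of 9 receptors passed 2-fold between depots in WT (all genes 12.4%, median 0.03) and 3 of 9 in KO (all genes 22.7%, median 0.32). Ccr7 was at -1.44 in WT and -3.77 in KO, and Cxcr3 at 2.51 and 3.16. Ccr2 was at 0.70 in WT and 1.70 in KO, Cxcr6 at 1.07 and 0.88, Ccr6 at -2.62 and 0.09, and Ccr4 at -1.72 and 0.56. These sums hold the shift from naive-like to experienced-like cells between depots. With the T cell subsets weighted equally, Ccr2 in KO came to 0.24 and Cxcr6 in WT to 0.13. Subsets with fewer than 10 cells in a library did not enter: naive-like CD4 T cells in both genotypes and naive-like CD8 T cells in KO. Of 7 genes of lymph node stroma, vessels and follicles, 6 were detected in each library, with sums of 106, 64.8, 700 and 341 CPM in WT SC, KO SC, WT IP and KO IP. Ccl21a was at 0.324 and 3.45 CPM in WT SC and KO SC and at 653 and 282 in WT IP and KO IP, whereas Fcer2a of follicular B cells was at 64.2 and 39.4 CPM in SC and 2.74 and 3.05 in IP. These values are over all kept cells of a library. B-like cells made up 30.1% and 22.1% of them in WT SC and KO SC, but 3.1% and 4.6% in WT IP and KO IP. Within B-like cells the gene list summed to 456, 300, 220 and 171 CPM in the same order. Glycam1, a gene of lymph node vessels, had 0 UMIs in 3 libraries and 3 in KO SC. The part of lymph node tissue in the depot differences was not tested.

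**Figure D5:**
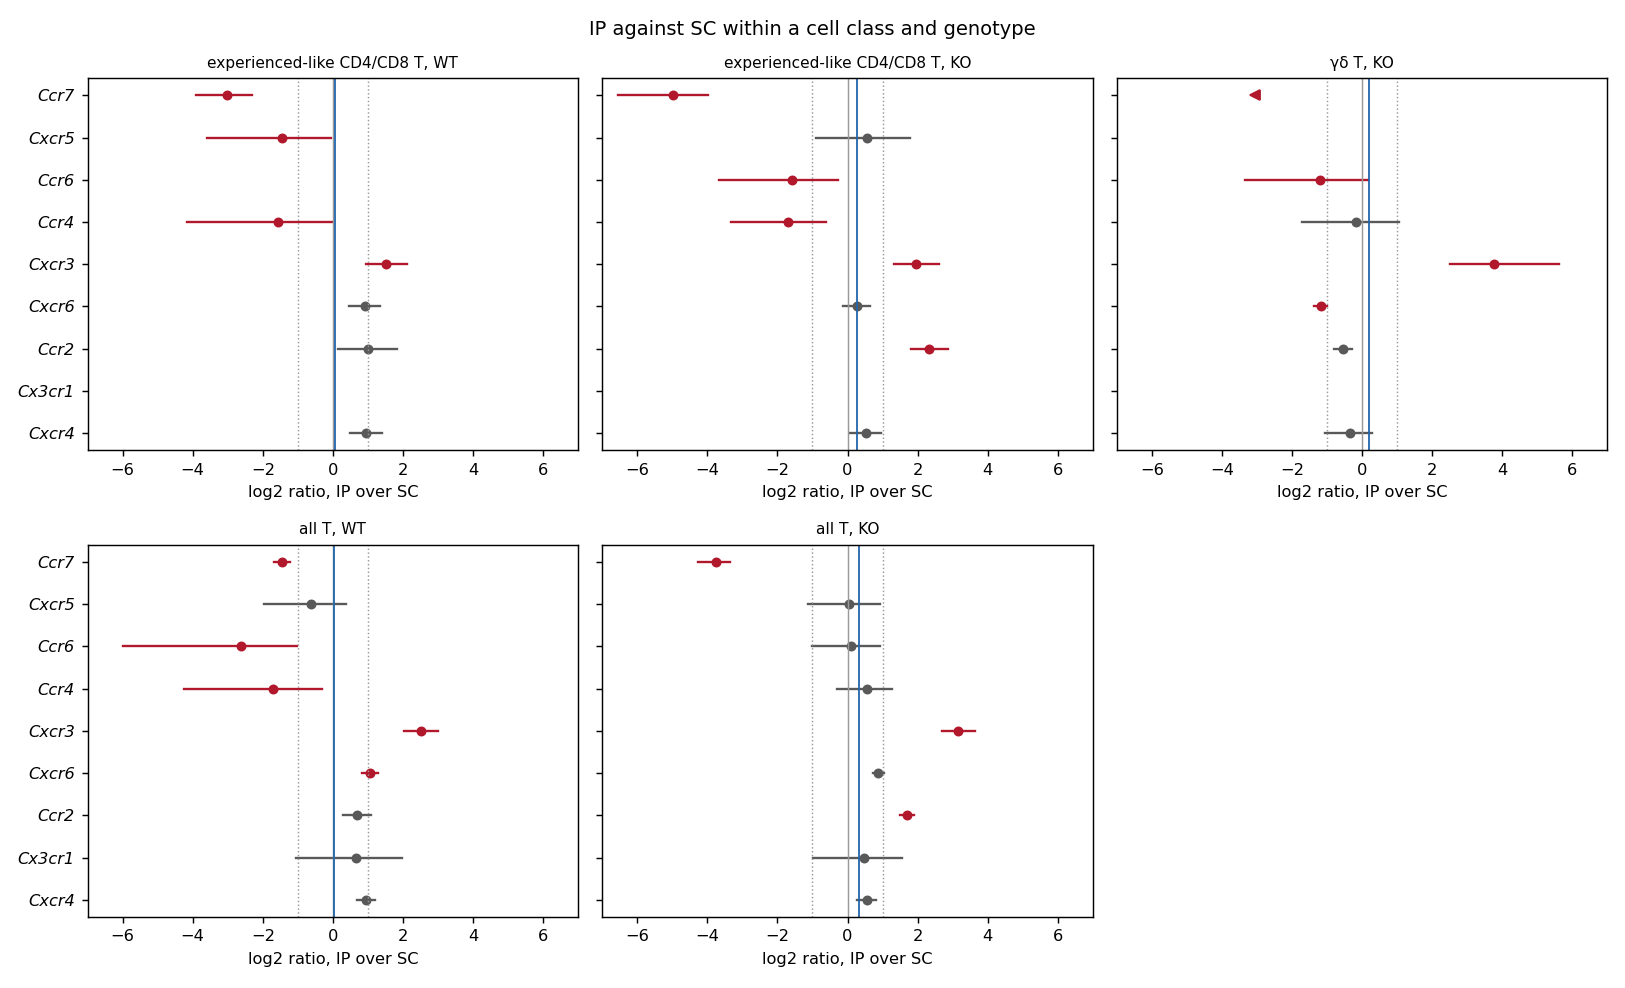
Log2 ratios of IP over SC (horizontal axis) for each receptor (vertical axis) within a genotype, with bars for the 95% counting interval; red marks ratios past 2-fold, dotted lines 2-fold and the blue line the median of all genes. In experienced-like T cells of both genotypes Ccr7 lies at -3.02 and -4.99 and Cxcr3 at 1.52 and 1.96.

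Other chemokine receptors were read in the same classes. Neutrophil-like cells of KO IP had Cxcr2 at 1024 and Ccr1 at 961 CPM, and stromal-like cells had the scavenging receptor Ackr3 at 900, 1039, 236 and 313 CPM in WT SC, KO SC, WT IP and KO IP. In mononuclear phagocytes of IP, Ccr9 passed 2-fold in KO against WT, with 23 against 4 UMIs, 21 of the 23 in 1 cell.

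Among 8 other trafficking receptors the γδ T-like cells of SC had 1 higher and 4 lower past 2-fold of 7 compared, with a median of -1.25 beside -0.11 over all genes. S1pr1, the receptor by which lymphocytes leave tissue for lymph, was lower in KO (log2 -1.91, 36 against 52 UMIs), as were S1pr4 (-1.87), Itga4 (-1.53) and Ptger4 (-1.25), and Gpr183, an oxysterol receptor, was higher (1.02). Cells with IL-17 program genes were 20 of 31 in WT SC and 100 of 119 in KO SC. The part of this shift in these ratios, and in those of the signalling genes below, was not tested. In experienced-like T cells of SC Itga4 was also lower in KO (log2 -1.44). Between depots Itga4, the integrin chain that binds Vcam1, was higher in experienced-like T cells of IP, by log2 1.78 in WT and 3.13 in KO.

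Of the 13 genes of receptor signalling and desensitisation, Rgs1, which dampens signals of these receptors, was higher in γδ T-like cells of KO SC than of WT SC (log2 1.21) and lower in γδ T-like cells of KO IP than of KO SC (log2 -1.31). It was also higher in KO in B-like cells of SC (log2 2.27, 57 against 9 UMIs) and lower in KO in experienced-like T cells of IP (log2 -1.02, 157 against 268 UMIs). Grk6, a receptor kinase, and Pik3cg, a kinase downstream of these receptors, were lower in γδ T-like cells of KO SC than of WT SC (log2 -1.05 and -1.39), and Pik3cg was higher in those of KO IP than of KO SC (log2 1.43). The whole list had medians of -0.25 in γδ T-like cells and -0.17 in experienced-like T cells of SC for KO against WT, beside -0.11 and -0.13 over all genes. Arrb1 was higher in KO in all T-like cells of IP (log2 1.56) and in experienced-like T cells of SC (log2 1.34).

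Ligands of the 9 receptors were read in the same libraries, 13 of the 14 on the list. Stromal-like cells held Ccl2 at 412, 429, 414 and 209 CPM and Ccl7 at 301, 324, 266 and 223 CPM in WT SC, KO SC, WT IP and KO IP, both ligands of Ccr2. They held Cxcl12, the ligand of Cxcr4, at 170, 83.5, 426 and 188 CPM. Cxcl16, the ligand of Cxcr6, was at 100 and 93.0 CPM in macrophage-like cells and at 127 and 100 CPM in dendritic-like cells of WT IP and KO IP. Cxcl9 was at 93.7 CPM in stromal-like cells of WT IP and 56.2 in those of KO IP, with 355 of 587 and 282 of 285 UMIs in 1 cell each. In mononuclear phagocytes of IP Cxcl10 was lower in KO (log2 -1.62, 18 against 193 UMIs) and Ccl7 higher (log2 2.61), with 70 of the 78 KO UMIs in 1 cell.

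The genes whose levels across 22 class and library pairs were most like each receptor are given as a description, since the pairs share libraries and depth. For Ccr7 these were Gm8369 (r = 0.968), Fam169b and Rpl7, and for Cxcr5 the B cell genes H2-Oa (r = 0.937), H2-Ob and Tnfrsf13c. For Cxcr6 they were Jaml (r = 0.954), Cwc25 and Aqp3, and for Ccr2 Hilpda (r = 0.939), Ccrl2 and Mapkapk3. Cxcr4 was most like Nfkbid (r = 0.965), St8sia4 and Arhgap30, Ccr6 most like Mif4gd (r = 0.901), Neil1 and Il9r, and Cxcr3 most like Cysltr2 (r = 0.871), Ttc39b and Il18rap. The leading genes were Ankrd6 (r = 0.882), Hif1a and Gm15511 for Ccr4, and Gm14636 (r = 0.924), Sdcbp and Tnfsf13 for Cx3cr1.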

How the data were processed

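Adipose tissue cells were profiled with the Chromium 3' v3 kit in 4 libraries, 1 per group. The authors deposited filtered matrices of UMI counts per gene and barcode, not normalised, made with Cell Ranger (7.0.0 in the file headers), and the submitters' processing notes name STAR 2.6 and the mm10 build. Whether intronic reads were counted is not given in the sources used here.

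Cells needed 200 genes or more and no more than 25% of UMIs from mitochondria, and 23 doublets called by Scrublet (scanpy 1.11.5, expected rate 5%) were removed, 0.556%. A cell joined a class with at least 2 markers and 3 UMIs of its list. Cells meeting gates of 2 lineages were set aside unless 1 list had 10 times the UMIs of the other. Counts were summed per class and library (Python 3.11.15, numpy 2.4.6, scipy 1.17.1), with exact Poisson, Clopper-Pearson and conditional binomial 95% intervals. Classes with at least 30 cells in both libraries entered 14 comparisons. The interval script was tested on simulated data. With 1 library per group no test across samples was run. All 9 receptors were named throughout, other genes of the lists where past 2-fold or highest in a class, and for each receptor the 3 genes of highest Pearson correlation of log2(CPM + 10). Some genes of these lists are not reported here, and the γδ T-like cells were split by the 3 genes named, a choice made after seeing the data. The members and lists were chosen with earlier results of these data known. Alternatives changed the cell filters, doublets, gates, weighting, scaling, count minimum and thinning.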

Additional observations from a re-analysis of the deposited data

Results flagged for a closer look

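The ratio of Ccr7 in KO over WT had opposite signs in the depots. In experienced-like CD4 and CD8 T cells it was 0.47 in SC and -1.50 in IP on the log2 scale, the IP value from 6 and 15 UMIs. The negative sign in IP came from the CD8 cells, which had 0 UMIs in KO. The 6 UMIs of KO IP were in CD4 cells, which had 4.92 CPM in WT IP, the lowest of the 4 libraries, and so went the other way. In all T-like cells it was 0.32 in SC and -2.01 in IP. The difference between depots was not tested, since each group is 1 library. Naive-like cells, which carry most Ccr7, made up 74.2% and 76.3% of CD4 and CD8 T cells in WT SC and KO SC but 25.4% and 9.26% in WT IP and KO IP. With the T cell subsets weighted equally, the values of all T-like cells were 0.28 in SC and -2.48 in IP. Both naive-like subsets entered in SC but neither in IP, where KO had fewer than 10 cells of each. The values therefore cover different subsets and do not show how far naive-like cells account for the opposite signs.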

How the results depend on the processing

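Of 29 receptor ratios past 2-fold, 28 had an interval that left out 0, and all 253 values of these under the alternatives kept their sign and 245 stayed past 2-fold. The 8 that did not were Cxcr6 in γδ T-like cells of SC with doublets kept (KO over WT, 0.99); with a gate of 3 markers and 6 UMIs, Cxcr5 in experienced-like T cells of SC (-0.98) and Ccr7 in those of IP (-0.93), both KO over WT; with each cell weighted equally, Ccr4 of IP over SC in WT in experienced-like (-0.51) and all T-like cells (-0.80); and with T cell subsets weighted equally, all T-like cells of IP over SC for Ccr7 (-0.94) and Cxcr6 (0.13) in WT and Ccr2 (0.24) in KO. The other ratio, Ccr6 of IP over SC in γδ T-like cells of KO, lay between -1.39 and -1.05 under those that gave a value. The causes were not tested.

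The number of receptors past 2-fold moved in 17 of 129 recounts. With doublets kept it was 2 in place of 1 in experienced-like T cells of SC and 1 in place of 2 in γδ T-like cells of SC (KO against WT). With the stricter gate it was 1 in place of 2 in experienced-like T cells of IP. With each cell weighted equally it was 4 in place of 1 in experienced-like, 4 in place of 2 in γδ and 3 in place of 0 in all T-like cells of SC. With median-of-ratios scaling it was 2 in place of 1 in experienced-like T cells of SC. With at least 50 UMIs it was 0 in experienced-like and 1 in γδ T-like cells of SC, 1 in experienced-like T cells of IP (all KO against WT), and 2 in place of 4 for IP over SC in experienced-like T cells of WT and in γδ T-like cells of KO. With at least 5 UMIs it was 1 in naive-like CD4, 2 in naive-like CD8, 4 in γδ T-like and 1 in B-like cells of SC and 1 in mononuclear phagocytes of IP. Fewer or more genes were compared under these count minimums. The share of all genes past 2-fold was formed for the main setting only, so none of these recounts can be set against it. The naive-like share in KO SC was 79.4% in place of 76.3% when a call needed 2 UMIs and 2 times the other list.

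Of the levels 38 of 2268 moved, of the ratios 27 of 820 and of the thinned shares 186 of 414. The alternative without shared barcodes was chosen after seeing the data. No paired analysis was possible because each group is 1 library, and none could be left out. Ratios from under 50 UMIs are the least certain.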
